A study of Mus musculus with 4 samples.

Results

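High-Acaca adipocyte nuclei were barcodes with an adipocyte signature in which transcripts of Acaca made up at least 0.3% of all UMIs (unique molecular identifiers, each counting 1 captured transcript). Acaca encodes acetyl-CoA carboxylase 1, which makes malonyl-CoA. A barcode belonged to the set if it held at least 300 genes, had under 10% mitochondrially encoded UMIs, had at least 5 UMIs summed over 7 adipocyte genes (Plin1, Plin4, Lipe, Acsl1, Pde3b, Ghr and Sik2) and more than 3 times the sum over 7 genes of endothelial cells, macrophages, progenitors and muscle (Ptprb, Flt1, Mrc1, F13a1, Dcn, Lama2 and Ttn), and passed the Acaca threshold. The rule found 2169 members among 36690 barcodes that passed the first 2 filters and 36760 in all. By library they numbered 445 in BAT surgery, 562 in BAT sham, 478 in BeAT surgery and 684 in BeAT sham, and their UMIs summed to 3101564, 3613292, 4292022 and 3035168.

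The study sequenced nuclear RNA from adipose tissue of mice on a high-fat diet that had undergone either surgery or a sham operation. Each of BAT surgery, BAT sham, BeAT surgery and BeAT sham (BAT for brown and BeAT for beige adipose tissue, as labelled) was 1 library, so differences between surgery and sham are given with counting intervals and carry no test between animals. All 4 groups shared the diet. The type of surgery, the strain, age and number of mice behind a library, and any pooling of tissue were not stated in the sources used. The tissue labels were checked against Ucp1, the uncoupling protein that defines thermogenic fat cells: members held 0 UMIs of it in BAT surgery, BAT sham and BeAT surgery and 1 UMI in BeAT sham, where 3 UMIs would correspond to 0.731 to 1.01 CPM (UMIs of a gene in a sum scaled to 1000000).

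Adipocytes make fatty acids from carbohydrate in a short cytosolic pathway. Citrate leaves the mitochondrion through the carrier Slc25a1 and is split by ATP-citrate lyase (Acly), while Acss2 makes acetyl-CoA from acetate. Acetyl-CoA carboxylase commits the carbon to malonyl-CoA, fatty acid synthase (Fasn) builds palmitate with NADPH that malic enzyme (Me1) and the pentose phosphate pathway supply, and elongases and desaturases such as Elovl6 and Scd1 finish the chain. The transcription factors SREBP-1c (from Srebf1) and ChREBP (from Mlxipl) activate these genes. Insulin drives SREBP-1c through PI3 kinase, and Pik3r1 encodes a regulatory subunit of that kinase. SREBP acts at sterol response elements and E-boxes, often beside the CCAAT box bound by NF-Y.

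Promoter sequence is shown for 3 genes of this pathway that were higher in high-Acaca nuclei and hold at least 1 CCAAT box. The stretches are the 250 bases before each gene's start in RefSeq's GRCm38.p6 annotation, on the gene's strand. They lie at chr11:120824548-120824797 (minus strand) for Fasn, chr2:155517793-155518042 (plus strand) for Acss2 and chr5:28071162-28071411 (plus strand) for Insig1, the sterol-responsive brake on SREBP. Capitals mark matches, on either strand, to the CCAAT box or to the E-box CACGTG.
Fasn: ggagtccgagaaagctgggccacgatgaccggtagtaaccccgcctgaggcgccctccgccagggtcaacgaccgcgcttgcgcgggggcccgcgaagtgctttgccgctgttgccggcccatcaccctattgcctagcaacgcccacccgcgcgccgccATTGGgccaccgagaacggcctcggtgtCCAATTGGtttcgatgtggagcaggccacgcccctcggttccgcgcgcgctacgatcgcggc
Acss2: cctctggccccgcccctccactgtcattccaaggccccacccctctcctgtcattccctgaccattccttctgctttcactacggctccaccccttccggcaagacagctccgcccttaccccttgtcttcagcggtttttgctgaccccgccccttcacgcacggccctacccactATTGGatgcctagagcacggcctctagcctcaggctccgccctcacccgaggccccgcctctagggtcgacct
Insig1: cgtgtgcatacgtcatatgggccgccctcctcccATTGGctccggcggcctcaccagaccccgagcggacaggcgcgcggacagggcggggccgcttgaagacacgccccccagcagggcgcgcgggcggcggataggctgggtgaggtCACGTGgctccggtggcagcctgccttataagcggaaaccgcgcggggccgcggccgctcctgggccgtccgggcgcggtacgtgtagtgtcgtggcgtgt
Of the 17 fatty acid synthesis genes that were higher in high-Acaca nuclei against comparison adipocyte nuclei, 15 had a promoter entry. CCAAT was found in 9 of the 15 (60%), against 34.5% of 27025 promoters of the same length. The E-box CACGTG was found in 3 (20%; Elovl5, Insig1 and Slc25a1), against 6.05%. The GC box GGGCGG, which Acss2 and Insig1 also hold and which is not capitalised here, was found in 8 (53.3%), against 32.9%, and the sterol response element TCACNCCAC in 1 (Mlxipl, 6.67%), against 1.04%. Both strands were searched, the 2 CCAAT matches nearest the start of Fasn overlap each other, and a match is a run of letters, not a measured binding site.

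The Acaca level within the set is what the rule selected and is given as a description. The median member held 46 Acaca UMIs in BAT surgery, 29 in BAT sham, 65 in BeAT surgery and 19 in BeAT sham, and Acaca made up 0.744%, 0.446%, 0.772% and 0.445% of its UMIs in that order. Members of both surgery libraries thus lay further above the threshold than members of both sham libraries. Members with 3 or fewer Acaca UMIs, for which 1 molecule can decide membership, numbered 6, 9, 5 and 17 in the same order. Nuclei just inside the threshold (0.30% to 0.35%) numbered 27 in BAT surgery, 133 in BAT sham, 22 in BeAT surgery and 150 in BeAT sham, against 37, 152, 34 and 223 just outside it (0.25% to 0.30%). On either side of the threshold Acly, for example, stood at 290 CPM inside and 368 CPM outside in BAT surgery, 236 CPM and 226 CPM in BAT sham, 698 CPM and 650 CPM in BeAT surgery and 314 CPM and 267 CPM in BeAT sham.

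As the rule stands, high-Acaca nuclei made up 11.5% of the barcodes in the adipocyte gate in BAT surgery (95% exact Clopper-Pearson interval 10.5% to 12.6%, 445 of 3861), against 11.1% in BAT sham (10.2% to 11.99%, 562 of 5065). In BeAT surgery they made up 29.7% (27.5% to 32.0%, 478 of 1609), against 10.96% in BeAT sham (10.2% to 11.8%, 684 of 6243). These shares depended on what else the gate held. In BAT surgery 3139 of the 3416 other gated barcodes had under 0.5% of their UMIs from the 7 adipocyte genes, and in BeAT surgery 903 of 1131, against 136 of 4503 in BAT sham and 204 of 5559 in BeAT sham. Those low-gate barcodes carried markers of other cells: 5 epididymal genes (Gpx5, Rnase9, Adam28, Defb25 and Lcn5) summed to 9319 CPM in BAT surgery, and 8 T or NK cell and 6 B cell genes to 4108 and 2780 CPM in BeAT surgery, where their own 11 adipocyte markers summed to 1623 CPM.

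Among gated nuclei with at least 0.5% of UMIs from the adipocyte genes, a limit added after the data had been seen, high-Acaca nuclei were the majority after surgery. They made up 61.6% in BAT surgery (57.9% to 65.1%, 444 of 721), against 11.4% in BAT sham (10.5% to 12.3%, 562 of 4929). In BeAT surgery they made up 67.6% (64.0% to 71.1%, 476 of 704), against 11.3% in BeAT sham (10.5% to 12.1%, 683 of 6038). After every barcode with at least 1000 UMIs had been thinned to 1000 UMIs, and the others dropped, the rule was applied again. The shares were then 61.9%, 17.7%, 67.04% and 17.5% in the order BAT surgery, BAT sham, BeAT surgery and BeAT sham. On 1000 UMIs the gate of at least 5 UMIs is itself a limit of 0.5%, so thinning is no separate check of that limit. With 1 library per group, surgery cannot be told apart here from any other difference between the libraries, and the intervals cover counting error only. Outside the gate, where other cell types and free RNA set the background, barcodes at or above 0.3% Acaca numbered 6 of 6081 in BAT surgery, 26 of 5351 in BAT sham, 2 of 4340 in BeAT surgery and 23 of 4140 in BeAT sham. The median depth over all kept barcodes outside the gate was 3444, 2688, 2287.5 and 1684.5 UMIs, against 6925, 6232.5, 9016 and 4347.5 UMIs in members.

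**Figure D1:**
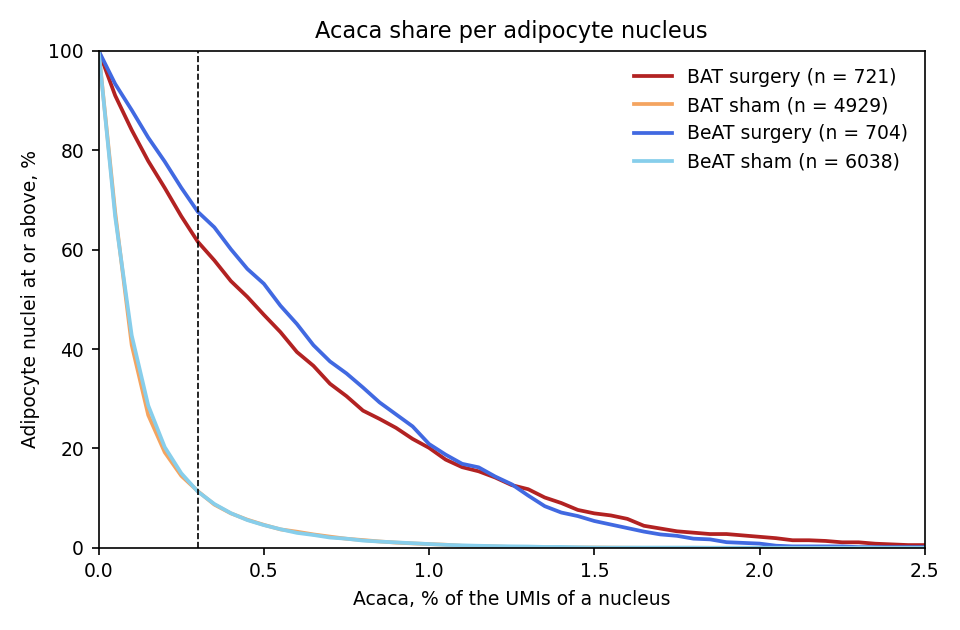
Share of adipocyte nuclei (vertical axis, %) at or above a given Acaca share of UMIs (horizontal axis, %), for gated nuclei with at least 0.5% of UMIs from the 7 adipocyte genes; 1 line per library, and the dashed line is the 0.3% threshold. At the threshold the lines stand at 61.6% in BAT surgery, 11.4% in BAT sham, 67.6% in BeAT surgery and 11.3% in BeAT sham, and none of the 4 shows a step there.

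The rule itself set the Acaca level and required the gate genes, so those levels are a description and not a check of the label. Acaca averaged 9050, 5463, 9022 and 5472 CPM in members of BAT surgery, BAT sham, BeAT surgery and BeAT sham, against 1502, 907, 1620 and 919 CPM in comparison nuclei, which are the gated nuclei under 0.3% Acaca that met the 0.5% limit (277, 4367, 228 and 5355 in the same order). Plin1, the coat protein of the fat droplet and one of the gate genes, stood at 900, 1591, 1256 and 1610 CPM in members, against 717, 1587, 828 and 1539 CPM in comparison nuclei. The 11 adipocyte markers summed to 40168, 27644, 40652 and 24430 CPM in members, but 7 of them are the gate genes. The label was checked on the 4 that the gate does not use (Adipoq, Cidec, Pnpla3 and Adrb3). All 4 were detected in members of every library. They summed to 3465, 4315, 3781 and 4297 CPM in members, against 2470, 3750, 2838 and 4187 CPM in comparison nuclei. In low-gate barcodes they summed to 22.8, 509, 55.9 and 1754 CPM. The excess over comparison nuclei is no check of the label. Pnpla3, a known SREBP-1c target, is among the genes named below as highest in members. From the lowest to the highest Acaca group, defined below, Pnpla3 was 4.55, 3.90, 4.44 and 6.25-fold higher in the same library order. Adipoq stood at 0.985, 0.725, 1.33 and 0.584 of its lowest-group level. Members were deeper than comparison nuclei in each library, with a median of 6925 against 6271 UMIs in BAT surgery, 6232.5 against 5769 in BAT sham, 9016 against 8246.5 in BeAT surgery and 4347.5 against 4016 in BeAT sham. Doublet calls marked 11.2%, 5.52%, 16.3% and 5.85% of members and 24.2%, 8.31%, 32.5% and 7.64% of comparison nuclei. An automatic threshold made the calls in BAT surgery (7.88% of kept barcodes) and BeAT surgery (10.4%). In the sham libraries the highest-scoring 6% were taken, so the rates of surgery and sham are not alike in method.

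RNA of other cells was present in members of every library. The 5 epididymal genes summed to 1546 CPM in BAT surgery members and 3518 CPM in its comparison nuclei, against 6.55 and 5.78 CPM in BAT sham, and Gpx5, Rnase9, Defb25 and Lcn5 were at 0 in members of the other 3 libraries. B cell markers summed to 243 CPM in BAT surgery members against 42.1 CPM in BAT sham members, and to 339 CPM in BeAT surgery members against 26.0 CPM in BeAT sham members. T or NK cell markers summed to 84.6 CPM in BAT surgery members against 16.8 CPM in BAT sham members, and to 307 CPM in BeAT surgery members against 26.4 CPM in BeAT sham members. Adipose progenitor and endothelial markers, some of which the gate limits, were higher in sham members. Progenitor markers summed to 318 CPM in BAT surgery against 688 CPM in BAT sham members. In BeAT they summed to 377 CPM in surgery against 482 CPM in sham members. Endothelial markers summed to 34.7 against 99.1 CPM in BAT and 135 against 154 CPM in BeAT. Cell barcode sequences shared between libraries numbered 36 to 72 per pair of libraries, and 1 was shared by members of BAT surgery and BeAT surgery.

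**Figure D2:**
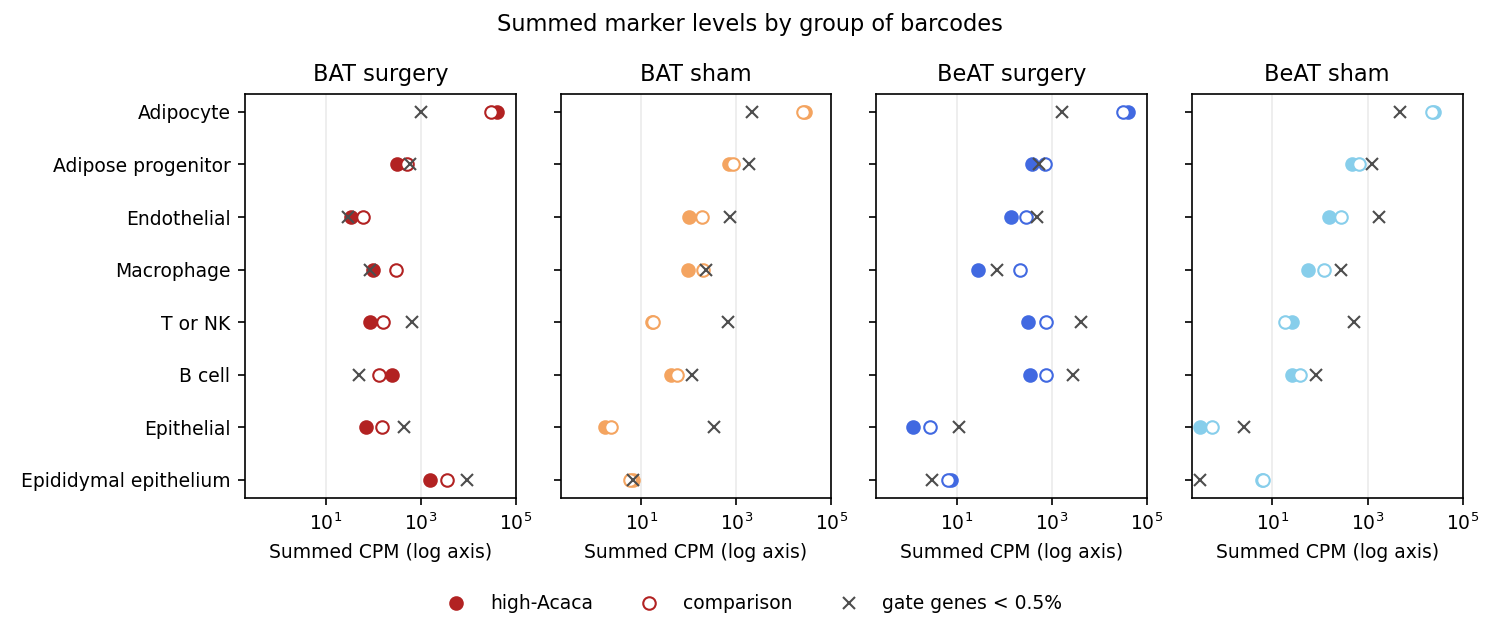
Summed CPM (horizontal axis, log scale; a sum of 0 is drawn at 0.3) of the markers of 8 cell types (7 of the 11 adipocyte markers are gate genes) in high-Acaca nuclei (filled), comparison adipocyte nuclei (open) and low-gate barcodes (crosses) of each library. Adipocyte markers of high-Acaca nuclei lie between 24430 and 40652 CPM, and the epididymal sum reaches 1546 CPM in BAT surgery members and 9319 CPM in the low-gate barcodes of that library.

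The first comparison asked which genes other than Acaca differed between high-Acaca and other adipocyte nuclei. UMIs were summed per library and state, and edgeR's quasi-likelihood test with the library as a block was run across all genes, leaving out Acaca and the 14 gate genes. Against all other gated barcodes edgeR called 0 genes higher and 0 lower of 13661 at an adjusted p under 0.05 (0% and 0%), with 2173 genes at an unadjusted p under 0.05, while DESeq2 called 219 higher and 635 lower. That comparison set adipocyte nuclei against the mixed low-gate barcodes of the surgery libraries. Against comparison adipocyte nuclei, a choice made after the data had been seen, 659 of 12212 genes were higher (5.4%) and 1050 lower (8.6%), with the same test. Without BAT sham the count of higher genes was 337, and without BeAT sham the counts were 307 higher and 534 lower. Without the library block, 2 genes were higher and 0 lower. The values below are for comparison adipocyte nuclei.

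Genes of fatty acid synthesis were higher in high-Acaca nuclei nearly throughout. Of the 18 genes of the list, all tested, 17 rose and 0 fell; the list was drawn up with earlier results of these data known, and Acly was named together with the rule, so its row is a description. Of the other 17 genes, 16 rose. The median log2 difference was 0.90 over the 18 genes, against -0.03 over all genes tested. In each of the 4 libraries 15 of the 18 were higher, against 1395 of all 12212 genes tested. The exception was Nr1h3, which encodes the oxysterol receptor LXR alpha (log2 0.12 ± 0.11 SE, adjusted p = 0.54).

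The enzymes that supply acetyl-CoA differed most. Acly stood at 910 CPM in members of BAT surgery, 543 in BAT sham, 861 in BeAT surgery and 568 in BeAT sham, against 210, 82.6, 355 and 97.3 CPM in comparison nuclei (log2 2.24 ± 0.19 SE). Acss2 stood at 804, 1164, 1083 and 1070 CPM in members, against 198, 272, 242 and 261 CPM in comparison nuclei. Its 4-fold difference was nearly the same in each library (4.05, 4.29, 4.47 and 4.10-fold), and the lowest member value lay above the highest comparison value (log2 2.14 ± 0.07 SE, edgeR adjusted p = 1.92e-07). The citrate carrier Slc25a1 was also higher (log2 1.14 ± 0.13 SE, adjusted p = 0.000521), at 41.1, 93.1, 49.96 and 108 CPM in members, against 19.1, 33.5, 28.5 and 59.0 CPM.

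Carboxylation, chain building and reducing power followed. Acacb, the mitochondrial acetyl-CoA carboxylase whose product restrains fatty acid oxidation, stood at 963, 604, 1556 and 609 CPM in members, against 497, 279, 940 and 291 CPM in comparison nuclei (log2 1.02 ± 0.08 SE, edgeR adjusted p = 8.61e-05). Fasn stood at 542, 757, 639 and 809 CPM, against 154, 211, 276 and 301 CPM (log2 1.63 ± 0.11 SE, adjusted p = 5.93e-05). Me1 stood at 1592, 1551, 1693 and 1330 CPM, against 389, 448, 501 and 422 CPM (log2 1.86 ± 0.08 SE, adjusted p = 3.59e-06). Members and comparison nuclei did not overlap across the libraries for Fasn and Me1, whereas for Acacb the comparison nuclei of BeAT surgery lay above the members of both sham libraries. How many of all genes tested separated without overlap was not counted. For Fasn and Me1, as for Acss2, the separation is therefore a description. The pentose phosphate enzymes Pgd (log2 0.74 ± 0.10 SE, adjusted p = 0.00127) and G6pdx (0.39 ± 0.09 SE, adjusted p = 0.0197) differed less, and G6pdx passed the threshold no longer without BAT surgery (adjusted p = 0.051) or without BAT sham (0.074).

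Genes that finish the chain were more uneven. Elovl6, which extends palmitate to stearate, stood at 271, 320 and 277 CPM in members of BAT sham, BeAT surgery and BeAT sham, against 41.9, 60.3 and 47.0 CPM in comparison nuclei, but at 229 CPM in members and 222 CPM in comparison nuclei of BAT surgery (log2 2.02 ± 0.35 SE, edgeR adjusted p = 0.00489, and log2 2.62 without BAT surgery). Scd2 behaved alike, with 87.0 CPM in members against 76.8 CPM in comparison nuclei of BAT surgery, and 52.4 to 62.9 CPM in members against 23.0 to 26.8 CPM in comparison nuclei of the other 3 libraries. Scd1, the main adipocyte desaturase, was 1.93, 1.25, 1.52 and 1.11-fold higher in members of BAT surgery, BAT sham, BeAT surgery and BeAT sham (log2 0.55 ± 0.12 SE, adjusted p = 0.015, and 0.05 without BeAT surgery). Elovl5 differed by 0.60 ± 0.11 SE (adjusted p = 0.00724).

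Regulators of the pathway were higher too, by less. Srebf1 stood at 299, 312, 266 and 268 CPM in members, against 170, 192, 235 and 193 CPM in comparison nuclei (log2 0.60 ± 0.10 SE, edgeR adjusted p = 0.0043). Mlxipl stood at 467, 350, 517 and 353 CPM, against 258, 278, 272 and 275 CPM (0.66 ± 0.11 SE, adjusted p = 0.0041). For Mlxipl the members of every library lay above the comparison nuclei of every library, again a description without a count over all genes. Insig1 was higher by 1.56 ± 0.10 SE (adjusted p = 5.93e-05). Thrsp, which stimulates lipogenesis (0.83 ± 0.17 SE, adjusted p = 0.0107), and Mid1ip1, an activator of acetyl-CoA carboxylase (0.82 ± 0.24 SE, adjusted p = 0.0464), passed the threshold no longer without BAT sham (adjusted p = 0.053 and 0.283) or without BeAT sham (0.063 and 0.272) or with DESeq2 (0.069 and 0.11), and Mid1ip1 was lower in BAT surgery members, at 23.9 CPM, against 35.6 CPM in comparison nuclei of that library.

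**Figure D3:**
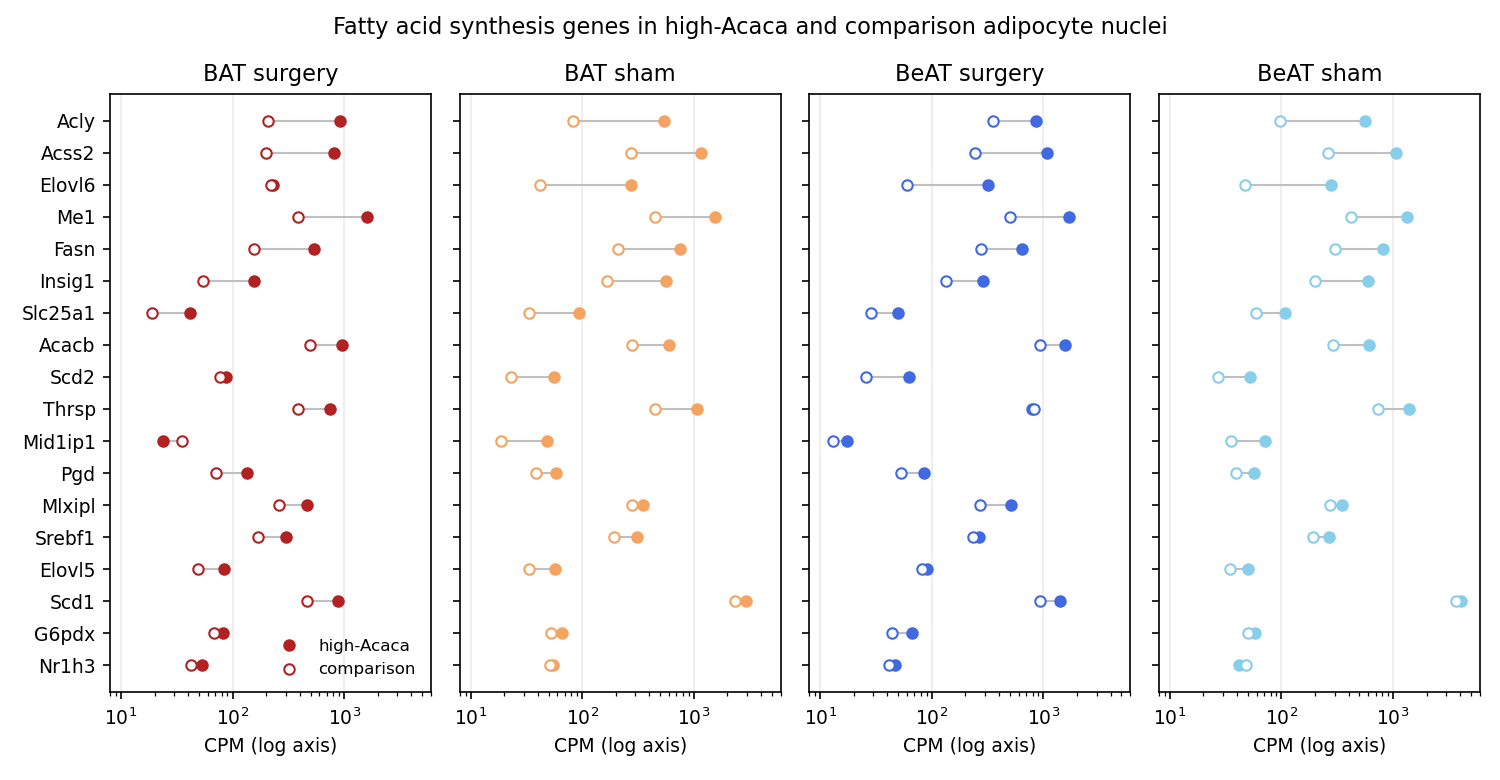
CPM (horizontal axis, log scale) of the 18 fatty acid synthesis genes in high-Acaca nuclei (filled) and comparison adipocyte nuclei (open) of each library, ordered by the fitted difference. Acss2 lies at 804 to 1164 CPM in high-Acaca nuclei and 198 to 272 CPM in comparison nuclei, while the points of Nr1h3 lie between 41.6 and 54.7 CPM.

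Levels were also followed over the whole range of Acaca. Nuclei were grouped by their Acaca share (under 0.1%, 0.1% to 0.3%, 0.3% to 0.6%, 0.6% to 1.2% and at least 1.2%), with limits chosen after the data had been seen. Acly, Acss2, Me1, Fasn and Acacb were higher at each of the 4 steps in each of the 4 libraries. So was Parm1, which is outside the fatty acid synthesis list. Steps were not counted over all genes, so a rise at every step is not read as particular to that list. The other 13 fatty acid synthesis genes were not: Insig1, Mlxipl and Scd1, for example, missed 1 step in BeAT sham, Elovl6 was higher at 1 of 4 steps in BAT surgery, and Nr1h3 at 2, 2, 2 and 0 of 4. From the lowest to the highest group Acly was 9.97-fold higher in BAT surgery, 41.0-fold in BAT sham, 11.02-fold in BeAT surgery and 26.4-fold in BeAT sham, and Fasn 7.89, 6.71, 5.42 and 4.80-fold. The highest group held 102, 14, 101 and 21 nuclei, so that of BAT sham is thin; in the 0.6% to 1.2% group of that library Acly stood at 858 CPM, against 52.3 CPM in the lowest group, and Fasn at 994 CPM, against 158 CPM. These levels are a description, since Acaca shares a total with every other gene of the nucleus.

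**Figure D4:**
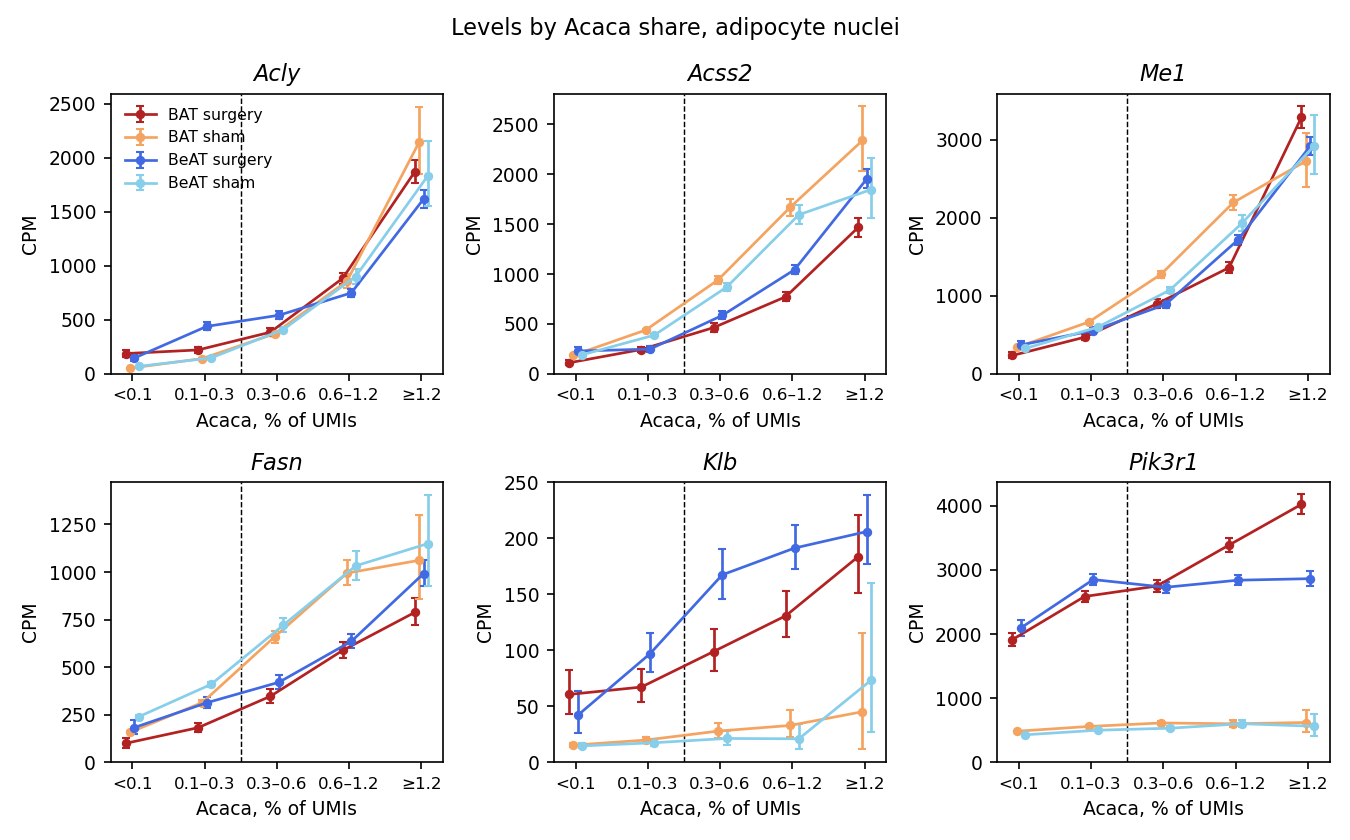
CPM (vertical axis, linear) of 6 genes in adipocyte nuclei grouped by Acaca share of UMIs (horizontal axis, %); points are sums over the nuclei of 1 library, bars are 95% exact Poisson intervals, and the dashed line is the 0.3% threshold. Acly, Acss2, Me1 and Fasn climb with Acaca in all 4 libraries, whereas Pik3r1 stands at 1913 to 4023 CPM in the surgery libraries and 430 to 621 CPM in the sham libraries.

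Klb and Pik3r1 were named with the set and separated mainly by library. Klb, the co-receptor through which FGF21 acts on adipocytes, stood at 130, 29.6, 186 and 22.6 CPM in members, against 64.9, 16.9, 81.1 and 15.7 CPM in comparison nuclei (log2 0.97 ± 0.12 SE). Pik3r1 stood at 3278, 611, 2802 and 550 CPM in members, against 2357, 510, 2634 and 455 CPM in comparison nuclei (log2 0.34 ± 0.08 SE), which is 1.39, 1.198, 1.06 and 1.21-fold. Comparison nuclei of the surgery libraries therefore held more Klb and Pik3r1 than members of the sham libraries. Other hormone receptors did not pass the test: Fgfr1, the receptor that partners Klb, differed by -0.04 ± 0.07 SE (adjusted p = 0.76) and the secretin receptor Sctr by 0.12 ± 0.13 SE (adjusted p = 0.61), while Gipr, Gpbar1, Glp1r and Nr1h4 held too few UMIs to test.

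Triglyceride assembly moved with fatty acid synthesis in part. Of its 10 genes 6 rose and 0 fell (median log2 0.41). Agpat2, which adds the second acyl chain, stood at 185, 369, 275 and 471 CPM in members, against 123, 173, 122 and 263 CPM in comparison nuclei (log2 0.99 ± 0.09 SE, edgeR adjusted p = 0.000237). Lpin1, the phosphatidate phosphatase, differed by 0.62 ± 0.08 SE (adjusted p = 0.0011), and the acyltransferases Gpam, Dgat1 and Dgat2 and the dehydrogenase Gpd1 by 0.39 to 0.56, calls that were lost without BAT sham (adjusted p 0.085 to 0.092) and without BeAT sham (0.052 to 0.073), that of Dgat2 also, narrowly, with doublets removed. Pnpla3, a triglyceride remodelling enzyme and a known SREBP-1c target, was among the 12 genes highest in members (log2 1.29 ± 0.09 SE, adjusted p = 7.53e-05), as was Gpd2, the mitochondrial glycerol-3-phosphate dehydrogenase (log2 1.3 ± 0.09 SE).

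Insulin signalling was divided. Of 14 genes 5 rose and 1 fell (median log2 0.19). Among the genes that rose, Irs1, which relays the signal of the insulin receptor, differed by 0.42 ± 0.08 SE (adjusted p = 0.00691); Insr, Tbc1d4 and Pik3r1 rose by 0.33 to 0.43, and each of these calls was lost without BeAT sham (adjusted p 0.061 to 0.112), those of Insr (0.078) and Pik3r1 (0.108) also without BAT sham, and that of Pik3r1 with doublets removed (0.094). Igf1r, the IGF-1 receptor, fell, at 161, 34.5, 85.5 and 26.4 CPM in members, against 269, 55.6, 124 and 44.9 CPM in comparison nuclei (log2 -0.62 ± 0.08 SE, adjusted p = 0.00109). The glucose transporter gene Slc2a4 (0.33 ± 0.10 SE, adjusted p = 0.0533) and Akt2 (0.23 ± 0.07 SE, adjusted p = 0.0503) lay just outside the threshold, as did Grb14, an inhibitor of the insulin receptor (-0.57 ± 0.19 SE, adjusted p = 0.0789), which was lower in members of both sham libraries (304 CPM in members against 653 CPM in comparison nuclei of BAT sham, and 364 CPM against 651 CPM in BeAT sham).

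Breakdown and use of fat differed less. Among 10 tested lipolysis and droplet genes 3 rose (Plin2, Cidea and the adrenergic receptor Adrb3) and 1 fell, the triglyceride lipase Pnpla2 (-0.36 ± 0.08 SE, adjusted p = 0.0128; 0.071 without BAT sham and 0.123 without BeAT sham), with a median log2 of 0.00. Plin2 kept its call without each library in turn (0.58 ± 0.07 SE, adjusted p = 0.000651), whereas Cidea lost it without BeAT sham (0.076) and Adrb3 without BAT surgery (0.083), BAT sham (0.179) or BeAT sham (0.152) or with doublets removed (0.283). Of 13 fatty acid oxidation genes 5 rose, among them Ehhadh, Hadha, Hadhb and Pdk4 (by 0.30 to 0.52), and 0 fell. Hadha, a subunit of the mitochondrial trifunctional protein, kept its call without each library in turn (0.42 ± 0.10 SE, adjusted p = 0.0182); Ehhadh, Hadhb and Pdk4 lost theirs without BeAT sham (adjusted p 0.07 to 0.189). Hadhb and Pdk4 also lost theirs without BeAT surgery (0.072 and 0.144), with DESeq2 (0.096 and 0.072) and with doublets removed (0.083 and 0.067), and Hadhb without BAT sham (0.132). Cpt1a, the gate of mitochondrial fatty acid entry that malonyl-CoA inhibits, stood at 36.1, 20.2, 23.9 and 14.9 CPM in members, against 51.02, 23.4, 32.3 and 21.0 CPM in comparison nuclei, and missed the threshold (-0.34 ± 0.11 SE, adjusted p = 0.0768).

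Counts in the remaining lists stood against 5.4% higher and 8.6% lower over all genes tested, and with so few genes in a list a count of 1 or 2 is not read as a result about it. Of 8 adipokine genes 2 rose (Nampt and Nrg4, by 0.26 and 0.30, both lost without BAT sham, BeAT surgery or BeAT sham and with doublets removed, at adjusted p 0.052 to 0.115, and Nampt also without BAT surgery, at 0.084) and 1 fell, Cfd, which encodes adipsin (-0.55 ± 0.11 SE, adjusted p = 0.00843; 0.056 without BAT sham and 0.067 without BeAT sham). Adiponectin (Adipoq, -0.07 ± 0.09 SE) and leptin (Lep, -0.08 ± 0.07 SE) did not pass the test. Among 8 tested thermogenic genes Cidea alone rose (0.57 ± 0.13 SE, adjusted p = 0.0175). Among 15 clock genes 2 rose, one of them Bhlhe40 (0.49 ± 0.13 SE, adjusted p = 0.035, a call lost without BAT sham at 0.302, without BeAT sham at 0.155, with DESeq2 at 0.095 and with doublets removed at 0.062), and 0 fell. Of 6 adipogenic factors Pparg rose (0.38 ± 0.10 SE, adjusted p = 0.0303; 0.056 without BAT sham, 0.103 without BeAT surgery and 0.077 without BeAT sham), of 6 glucocorticoid targets Klf9 fell (-0.38 ± 0.09 SE, adjusted p = 0.016; 0.052 without BeAT surgery and 0.12 without BeAT sham), and of 10 tested genes that mark the position of a fat depot 0 rose and 0 fell. Of 7 tested immediate early and heat shock genes 3 fell (Fos, Fosb and Junb) and 0 rose (median log2 -0.66); Fos lost its call without BeAT sham (adjusted p = 0.055) and Fosb without BAT sham (0.053), BeAT surgery (0.48) or BeAT sham (0.089), with DESeq2 (0.218) or with doublets removed (0.063). Junb stood at 6.07, 35.3, 76.3 and 69.6 CPM in members, against 15.5, 56.2, 246 and 127 CPM in comparison nuclei (-1.07 ± 0.16 SE, adjusted p = 0.00207).

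The 12 genes highest in members by the naming rule were Acly, Acss2, Elovl6, Pgm3, Me1, Fasn, Insig1, Parm1, Sorl1, Gpd2, Pnpla3 and Fgf14, of which 6 belong to the fatty acid synthesis list. Pgm3, an enzyme of UDP-N-acetylglucosamine synthesis, stood at 256, 85.2, 294 and 59.8 CPM in members, against 52.6, 27.5, 53.7 and 26.7 CPM in comparison nuclei (log2 1.90 ± 0.18 SE, edgeR adjusted p = 0.000284). In GENCODE's mm10 annotation Pgm3 (chr9:86554377-86571842) lies 9.53 kb downstream of Me1 on the same strand, and whether reads from Me1 entered its count was not tested. Sorl1, a sorting receptor, differed by 1.38 ± 0.13 SE (adjusted p = 0.000284) and Parm1 by 1.51 ± 0.11 SE (adjusted p = 8.61e-05). Fgf14 stood at 52.6, 743, 1119 and 688 CPM in members, against 10.8, 345, 512 and 318 CPM in comparison nuclei (1.26 ± 0.12 SE, adjusted p = 0.000304).

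The 12 lowest genes by the naming rule were Epsti1, Hba-a2, Cd74, Bank1, Dab2, St6gal1, Frmd4b, Hba-a1, Dock2, Slc9a9, Ap1s2 and Hbb-bs. Hba-a1, Hba-a2 and Hbb-bs encode the globins of red blood cells, and Bank1 is one of the B cell markers. Cd74, the invariant chain of MHC class II, stood at 16.2, 42.7, 50.7 and 62.9 CPM in members, against 59.8, 153, 155 and 140 CPM in comparison nuclei (log2 -1.57 ± 0.11 SE, edgeR adjusted p = 5.93e-05). The 8 macrophage markers, all detected in both states, summed to 96.8, 95.4, 27.5 and 57.1 CPM in members, against 300, 194, 213 and 124 CPM in comparison nuclei. B cell markers summed to 243, 42.1, 339 and 26.0 CPM in members, against 132, 55.2, 764 and 38.5 CPM in comparison nuclei, so that in BAT surgery they were higher in members. T or NK cell markers summed to 84.6, 16.8, 307 and 26.4 CPM in members, against 158, 17.9, 743 and 18.7 CPM in comparison nuclei, and in BeAT sham they were higher in members. The part of other cells' RNA in these lower genes was not tested; with called doublets removed, 561 genes were higher and 884 lower, 17 of the 18 fatty acid synthesis genes were called higher, and Ap1s2 (-0.64, adjusted p = 0.132) lost its call. Ap1s2 also lost it without BAT surgery (-0.76, adjusted p = 0.144), and Slc9a9 with DESeq2 (-1.27, adjusted p = 0.065).

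The second comparison set surgery against sham within high-Acaca nuclei, for each tissue label. A gene was called where the ratio of its scaled UMI sums was at least 2-fold with a 95% interval excluding 1 and the pair held at least 50 UMIs; the interval is an exact binomial one and covers counting error only. In BAT, 753 of 9733 genes were higher (7.74%) and 738 lower (7.58%). In BeAT, 752 of 9843 genes were higher (7.64%) and 914 lower (9.29%). Over both tissue labels 214 genes were higher in each and 194 lower in each, while 8 were higher in BAT and lower in BeAT and 13 the reverse. With doublets removed, 463 genes were higher in BeAT. The median log2 ratio of all genes was 0.10 in BAT and 0.08 in BeAT. Whether the difference between states depended on surgery was fitted as an interaction across the 4 libraries: edgeR called 0 of 12212 genes higher and 0 lower, with 1136 at an unadjusted p under 0.05.

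Fatty acid synthesis genes were not on balance higher in members after surgery. In BAT 1 of the 18 genes was called higher (Pgd) and 4 lower, with a median log2 ratio of -0.05. In BeAT 1 was called higher (Acacb) and 4 lower, with a median of 0.18. The 4 lower genes were Scd1, Insig1, Slc25a1 and Mid1ip1 in both. Scd1 stood at 889 CPM in BAT surgery members against 2940 CPM in BAT sham members (ratio 0.302, 95% interval 0.290 to 0.316) and at 1416 CPM in BeAT surgery members against 4081 CPM in BeAT sham members (0.347, 0.336 to 0.358). Insig1 gave ratios of 0.276 (0.249 to 0.305) and 0.481 (0.447 to 0.518). Acss2 gave 0.690 (0.656 to 0.726) in BAT and 1.01 (0.967 to 1.06) in BeAT, and Me1 1.03 (0.987 to 1.07) and 1.27 (1.22 to 1.32). Fasn lay below 1 in both, at 0.716 (0.673 to 0.762) and 0.790 (0.747 to 0.835). Acly lay above 1, at 1.68 (1.58 to 1.78) and 1.52 (1.43 to 1.61). In comparison nuclei the Acly ratios were 2.54 and 3.65, and the difference between the states was not called (interaction, edgeR adjusted p = 0.31). Surgery members held more Acaca, as given above, so these ratios do not compare nuclei of equal Acaca share. In the 0.6% to 1.2% Acaca group Acly stood at 884 CPM in BAT surgery against 858 CPM in BAT sham. In BeAT it stood at 749 CPM in surgery against 901 CPM in sham. Other genes went either way in that group. Me1 was lower after surgery (1360 against 2195 CPM in BAT, 1713 against 1930 CPM in BeAT). Acacb was higher (963 against 822 CPM, 1619 against 738 CPM).

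Some hormone and insulin signalling genes were higher in surgery members. Of 14 insulin and glucose genes 4 were higher and 2 lower in BAT (median log2 0.04) and 5 higher and 1 lower in BeAT (median log2 0.35), and of 3 hormone receptor genes that could be scored 2 were higher and 0 lower in each. Klb was 4.38-fold higher in BAT surgery than in BAT sham members (3.52 to 5.50) and 8.21-fold higher in BeAT surgery than in BeAT sham members (6.39 to 10.7). Pik3r1 was 5.37-fold (5.12 to 5.63) and 5.10-fold higher (4.84 to 5.37), Sctr 4.204-fold (3.31 to 5.38) and 6.06-fold higher (4.56 to 8.20). Tbc1d4, a substrate of AKT that controls glucose transporter traffic, was 3.04-fold (2.83 to 3.28) and 2.36-fold higher (2.18 to 2.56). Foxo1, which insulin holds out of the nucleus, was 2.04-fold and 2.85-fold higher, and Igf1r 4.67-fold and 3.25-fold higher. The glucose transporter Slc2a4 was lower, at 38.8 CPM in BAT surgery against 104.8 CPM in BAT sham members and at 60.2 CPM in BeAT surgery against 129 CPM in BeAT sham members.

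Glucocorticoid-responsive and clock genes separated surgery from sham members as well. Fkbp5, a chaperone of the glucocorticoid receptor and a standard target of it, stood at 1202 CPM in BAT surgery members against 50.4 CPM in BAT sham members and at 424.5 CPM in BeAT surgery members against 31.1 CPM in BeAT sham members (ratios 23.9 and 13.7). Zbtb16, another target, was 5.30-fold and 5.67-fold higher. Of the 16 clock genes 15 could be scored in each pair: 2 were higher in both (Arntl and Clock) and 8 were lower in BAT and 6 in BeAT. Arntl, which encodes the activator BMAL1, stood at 72.8 CPM in BAT surgery members against 5.98 CPM in BAT sham members and at 50.7 CPM in BeAT surgery members against 4.06 CPM in BeAT sham members. Its output gene Dbp stood at 7.76 CPM in BAT surgery members against 80.3 CPM in BAT sham members and at 4.87 CPM in BeAT surgery members against 83.8 CPM in BeAT sham members. The hour of tissue collection was not stated either, and its part in these values was not tested.

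Some adipokine and lipolysis genes were lower in surgery members. Of 8 adipokine genes 0 were higher and 4 lower in each pair. Of 10 triglyceride synthesis genes 0 were higher in each pair and 1 was lower in BAT and 0 in BeAT. Leptin gave ratios of 0.355 (0.319 to 0.395) in BAT and 0.435 (0.399 to 0.475) in BeAT. Adiponectin gave 0.592 and 0.405. Fabp4, the adipocyte fatty acid carrier, gave 0.243 and 0.422, Pnpla2 0.383 and 0.373, and Adrb3 0.449 and 0.355. Of 9 lipolysis and droplet genes scored in each pair, 1 was higher and 5 lower in BAT and 0 were higher and 3 lower in BeAT; the higher gene was Abhd5, the coactivator of Pnpla2 (2.05, 1.78 to 2.37).

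By the naming rule the 10 genes most higher in both pairs were Cish, Lef1, Igkc, Skap1, Fkbp5, Arntl, Ptpn22, Spon1, Ezr and Arhgef37, and the 10 most lower were Dbp, Cxcl9, Fabp5, Nnat, Sncg, Klhl33, Carmn, Gpx8, Klf10 and Acta2. Cish, a STAT5-induced inhibitor of cytokine signalling, stood at 46.5 CPM in BAT surgery against 1.14 CPM in BAT sham members and at 47.8 CPM in BeAT surgery against 1.01 CPM in BeAT sham members. Igkc, Lef1, Skap1 and Ptpn22 are genes of lymphocytes, whose summed markers were also higher in surgery members, as given above. With doublets removed, the log2 ratio in BAT was 1.18 for Skap1 and 1.55 for Lef1. Nnat, an imprinted gene, stood at 166 CPM in BAT surgery against 3542 CPM in BAT sham members and at 547 CPM in BeAT surgery against 3614 CPM in BeAT sham members.

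**Figure D5:**
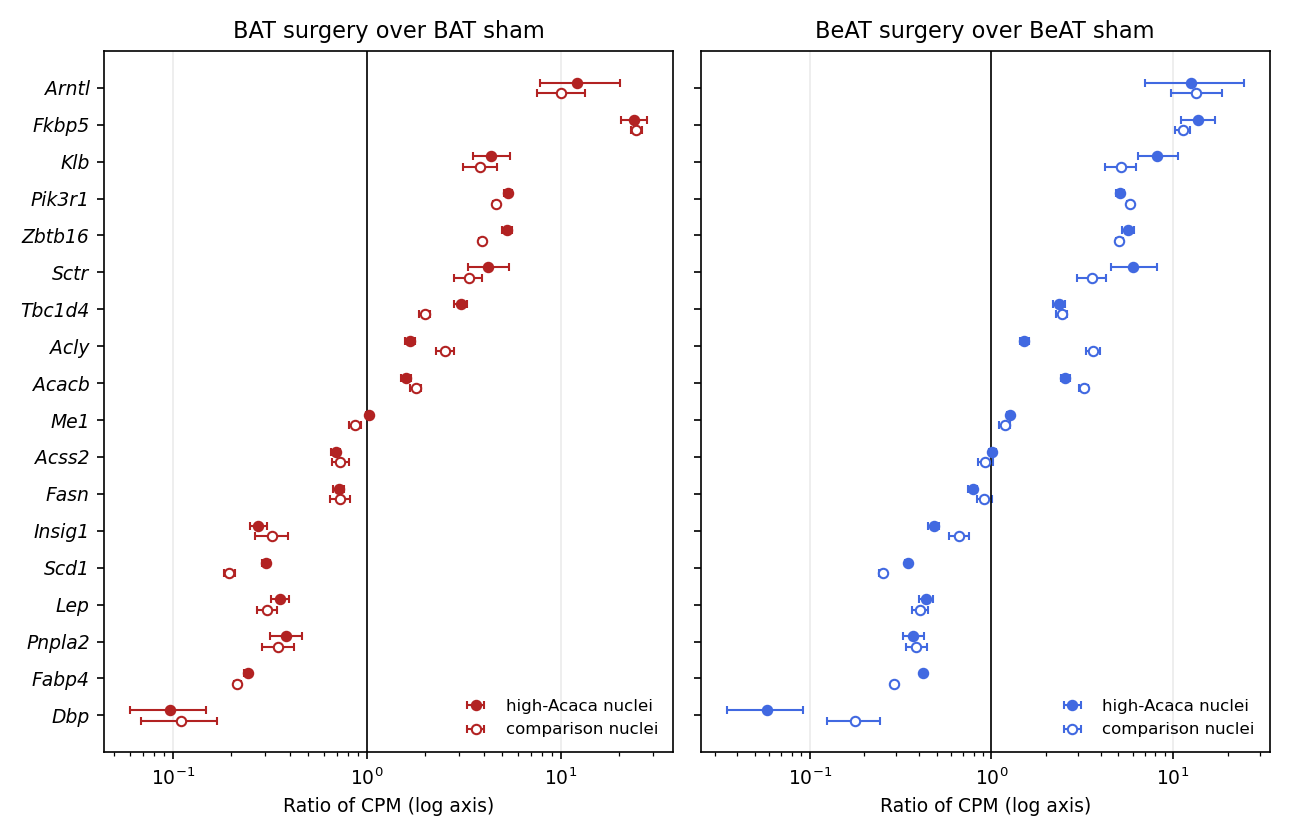
Ratio of CPM (horizontal axis, log scale) of surgery over sham for 18 genes in high-Acaca nuclei (filled) and comparison adipocyte nuclei (open), BAT on the left and BeAT on the right; bars are 95% exact intervals for counting error, and the vertical line is 1. Apart from Me1 in BAT and Acss2 in BeAT, both kinds of nuclei lie on the same side of 1 for each gene: Pik3r1 is 5.37-fold and 5.10-fold higher in high-Acaca nuclei and Scd1 lies at 0.302 and 0.347.

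Comparison nuclei gave ratios on the same side of 1 for Pik3r1, Fkbp5, Klb and Scd1. Pik3r1 gave 4.62 in BAT and 5.79 in BeAT comparison nuclei, Fkbp5 24.5 and 11.3, Klb 3.85 and 5.17, and Scd1 0.196 and 0.252. The members of the BAT pair also differed in genes that mark the position of a fat depot. Of 7 position genes with enough UMIs 7 were lower in BAT surgery than in BAT sham members, against 0 higher and 0 lower of 8 in BeAT. In comparison nuclei 0 of 10 position genes were higher and 9 lower in BAT, and 1 of 10 was higher and 5 lower in BeAT (median log2 -1.04). Over all genes scored in comparison nuclei, 1535 of 13868 were higher and 1080 lower in BAT. In BeAT, 1386 of 13301 were higher and 1598 lower. Hoxa9 stood at 1.35 CPM in BAT surgery against 78.6 CPM in BAT sham members, and at 42.9 CPM in BeAT surgery against 65.2 CPM in BeAT sham members. Tbx15 stood at 0.674 CPM in BAT surgery against 57.5 CPM in BAT sham members, and at 92.6 CPM in BeAT surgery against 51.7 CPM in BeAT sham members. Hoxc10 held 0 UMIs in BAT surgery members, against 17.4 CPM in BAT sham members, which is at least 17.2-fold lower with 3 UMIs as the floor. Zic1, a gene of interscapular brown fat, held 0 UMIs in members of all 4 libraries. Surgery and the site from which the tissue came cannot be told apart in either pair.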

How the data were processed

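The deposited tables hold UMI counts of 32285 genes per barcode for each of the 4 libraries, and only these counts were used. Per the labels' protocols, tissue was minced and digested and libraries were made with a SeekGene single-cell protocol, although the molecule is labelled nuclear RNA. Per the submitters' processing notes the genome build was mm10 and Seurat 4.4.0 and 4 were used; no label, header or note used here names the aligner or counter. The members and gene lists were chosen with earlier results of these data known. Nuclei of 1 library are not replicates, so UMI counts were summed per library and state. With the library as block, p-values measure how the difference between the states within a library varied over the 4 libraries. Nothing in the labels says that a library is 1 animal, so they do not measure the spread between animals.

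High-Acaca sums were compared with edgeR 4.0.16 in R 4.3.3 (quasi-likelihood test, TMM scaling, filterByExpr, library as block, Benjamini-Hochberg adjustment over all genes tested). Acaca and the 14 gate genes were left out of tables, totals and tests; CPM scales the remaining UMIs to 1000000, and its 95% intervals are exact Poisson. The limit of 0.5% of UMIs from the gate genes, which defines comparison nuclei, left 4 members out of that fit. The fit was tested on simulated counts. Alternatives were DESeq2 1.42.0, RLE scaling, no filter on low counts, other thresholds, thinning to 1000 UMIs, doublet removal (Scrublet in Scanpy 1.11.5, expected rate 6%) and leaving out each library. Doublets were otherwise kept. They were called by an automatic threshold in the surgery libraries and as the highest-scoring 6% in the sham libraries. Doublet removal thus differed in method between surgery and sham. Some genes that enter the counts are not reported here by name.

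Named genes were all members of the 13 gene lists; the 12 highest and 12 lowest called genes with at least 50 CPM on average and 1 direction in every library; and the 10 highest and 10 lowest surgery over sham ratios called in both tissue labels. Predicted, Rik and mitochondrially encoded genes were passed over. Surgery over sham ratios have exact conditional binomial intervals. Gene positions are from GENCODE's mm10 annotation and promoters from RefSeq's GRCm38.p6 table.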

Additional observations from a re-analysis of the deposited data

How the results depend on the processing

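The share of high-Acaca nuclei among gated barcodes, given in the order BAT surgery, BAT sham, BeAT surgery and BeAT sham, was 13.5%, 18.7%, 34.2% and 19.6% with an Acaca threshold of 0.2% and 8.75%, 4.5%, 23.3% and 4.42% with 0.5%. Thinned to 1000 UMIs it was 61.9%, 17.7%, 67.04% and 17.5%, where the gate of at least 5 UMIs equals 0.5% of UMIs by construction. A gate sum of at least 10 gave 25.3% in BAT surgery and 50.7% in BeAT surgery, and gate genes of at least 0.5% of UMIs gave 61.6% and 67.6%. Against all other gated barcodes the test called 219 genes higher and 635 lower with DESeq2, 4 and 155 with no filter on low counts, 12 and 100 with a threshold of 0.5%, 184 and 348 after thinning and 659 and 1050 against comparison nuclei, where the low-gate barcodes are left out. Leaving out each library in turn gave 0 to 0 higher and 0 to 0 lower. Against comparison nuclei, leaving out each library gave 307 to 548 higher and 534 to 873 lower, no filter gave 1647 lower, and no library block gave 2 higher and 0 lower, since differences between libraries then count as error. Fatty acid synthesis genes called higher numbered 14 to 17 of 18 in the alternatives with the library block and 2 without it. Of 67 named genes past the threshold, 39 stayed past it in every alternative other than no library block. Leaving out each library gave -0.14 to 0.027 for Adipoq and -0.19 to 0.063 for Pck1 (log2), with a turn of sign without BeAT sham for Adipoq and without either sham library for Pck1, and neither gene passed the test. Surgery over sham ratios called with no minimum of UMIs numbered 1593 higher and 1287 lower in BAT and 1342 and 1555 in BeAT, and after thinning 300 and 320 and 301 and 386. With doublets removed 463 genes were higher in BeAT, and with a threshold of 0.5% 572 were lower in BeAT. Where no construction is named, the cause was not tested. No paired analysis was possible because the labels number no replicates; each library holds both states and is the block. Ucp1, Zic1 and Gipr stayed at or under the 3 UMI floor in members of every library. The CPM to which that floor corresponds is given above with Ucp1.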

Other observations

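Pathways that feed or branch from fatty acid synthesis were looked up after the results had been seen, so their counts are a description. Of 21 tested genes of cholesterol synthesis and uptake 10 were higher in high-Acaca nuclei than in comparison nuclei and 1 lower (median log2 0.64, against -0.03 over all genes). Over all genes tested 5.4% were higher and 8.6% lower. Nsdhl stood at 119, 71.5, 86.8 and 74.7 CPM in high-Acaca nuclei of BAT surgery, BAT sham, BeAT surgery and BeAT sham, against 86.1, 29.6, 43.8 and 30.9 CPM in comparison nuclei (log2 1.08 ± 0.13 SE). Hmgcs1, the first committed step, differed by 0.63 ± 0.09 SE, while Srebf2 (0.07 ± 0.11 SE) did not pass the test and Ebp was lower (-0.67 ± 0.18 SE).

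Of 16 tested glycogen genes 10 were higher and 0 lower (median log2 0.40), against 5.4% higher and 8.6% lower over all genes tested. Gbe1, the branching enzyme, stood at 1126, 985, 1208 and 863 CPM in high-Acaca nuclei, against 513, 561, 487 and 477 CPM in comparison nuclei (log2 1.08 ± 0.09 SE). Ppp1r3b, which brings a phosphatase to glycogen synthase, stood at 34.1, 51.8, 82.9 and 62.9 CPM, against 13.9, 18.2, 18.1 and 24.6 CPM (log2 1.60 ± 0.14 SE). Transketolase (Tkt), of the pentose phosphate pathway, differed by 1.07 ± 0.11 SE, and over 7 tested genes of that pathway 3 were higher and 1 lower.

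Within high-Acaca nuclei 21 genes were called in opposite directions in the pairs of surgery and sham libraries. Hp, which encodes haptoglobin, had a surgery over sham ratio of 3.88 in BAT (1058 UMIs in surgery against 323 in sham members) and 0.471 in BeAT (249 UMIs in surgery against 381 in sham members). Csmd1 had 0.193 in BAT (14 UMIs in surgery against 86 in sham members) and 8.03 in BeAT (690 UMIs in surgery against 62 in sham members), and the difference between the pairs was not tested.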
